A study of Caenorhabditis elegans with 26 samples.

Results

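AEF373 is a strain of Caenorhabditis elegans that carries extra copies of flp-17, untagged and under the gene's own promoter, on an extrachromosomal array, and it was compared here with the control strain AEF231 across all genes. The members are the 5 AEF373 and 6 AEF231 libraries, chosen by strain, of 26 libraries in all. Poly(A) RNA of whole, age-synchronised day 1 adults grown on NGM plates with OP50-1 bacteria was sequenced, from 200 to 500 animals per sample.

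The AEF373 array, named only Ex, drives FLP-17 from flp17p with the 3'UTR of flp-17 and also holds mCherry under the promoter of unc-122, so that the coelomocytes, scavenger cells of the body cavity, are marked red by mCherry. The array came from the strain YUW133 and was crossed into AEF231, and a flp-17null background was lost in that cross, per the labels. Extrachromosomal arrays are repeats of the injected DNA, are not passed to every daughter, and are taken here from 1 strain name. AEF378 and AEF149, which also hold flp-17 arrays, are used below for tests of differences: AEF378 has the array ashEx67, with gcy-31p driving flp-17::GFP and a coel::RFP marker (n = 5), and AEF149 has ssrEx1193, with flp-17p driving flp-17::GFP and a myo-3p:mCherry marker (n = 5). AEF231 carries zcls4[hsp-4p::GFP]V, a reporter of stress in the endoplasmic reticulum (ER), after 6 outcrosses of the strain SJ4005 to N2, and AEF373 and AEF378 share that reporter and background, while AEF149 has the reporter in the SJ4005 background. The fit of all 26 libraries also takes in AEF276, with flp-17(n4894)IV and the same reporter (n = 5, batch 1), which is compared with nothing here. AEF373, AEF378 and AEF149 animals were picked by marker fluorescence 24 h ahead of collection and AEF231 animals were only washed and replated, so array and handling cannot be told apart. AEF373 libraries 4 and 5 and AEF231 libraries 5 and 6 belong to the labels' batch 2, and the other 3 AEF373 and 4 AEF231 libraries to batch 1.

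FLP-17 is a short secreted peptide of the FMRFamide-like family made by the BAG neurons, a pair of head sensory neurons that respond to carbon dioxide and oxygen. It is cut from a larger precursor, packed into dense-core vesicles and released. Its best known receptor is EGL-6, a G protein-coupled receptor on the HSN motor neurons, through which it inhibits egg laying by way of the G protein subunit GOA-1.

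Total counts ran from 9829740 to 13057368 in AEF373 and from 10557827 to 12417322 in AEF231, and the number of genes read at least once from 17386 to 18318 in AEF373 and from 16975 to 17363 in AEF231. 13315 genes were tested with edgeR's quasi-likelihood test, with strain and batch as terms and Benjamini-Hochberg adjustment over all of them; a gene is called at an adjusted p below 0.05. Levels are CPM (reads of a gene per 1000000 reads of the library, scaled by TMM), changes are log2 of AEF373 over AEF231 with their standard error (SE), and spreads are SDs. No label states that libraries of a strain were grown as separate cultures. A p-value therefore sets a change only against the spread among libraries of a strain, estimated over all 26 libraries. The markers of intestine, body wall muscle, pharynx, neurons, epidermis, oocytes, sperm and coelomocytes were all read in both strains, as a whole worm should give. In bulk RNA, more cells of a type and more RNA per cell cannot be told apart.

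The flp-17 gene, WBGene00001460, on the minus strand of chromosome IV from 17190204 to 17191891 (WBcel235), was read at 293, 332, 329, 262 and 289 CPM in the AEF373 libraries, against a lowest of 2.18, a median of 3.9 and a highest of 5.56 CPM in AEF231. Every AEF373 library lay above every AEF231 library, by 6.29 ± 0.14 log2, which is 78.4-fold (edgeR adjusted p = 1.83e-19). The change was 6.71 ± 0.12 log2 in batch 1 and 5.70 ± 0.15 in batch 2, and the difference between the batches was -1.01 ± 0.24 (edgeR adjusted p = 0.046). That difference lost its call when any of 9 of the 11 libraries was left out and under other scalings and filters. 21ur-3217, a short RNA gene on the opposite strand within flp-17 (17190929 to 17190949, plus strand), was read at 0.888 to 1.2 CPM in AEF373 and had no read in any AEF231 library. It was looked up after its values were seen, and its reads cannot be told from those of flp-17 here.

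The rest of the FLP-17 pathway changed little. egl-6, the receptor, was read at 5.42, 5.43, 4.81, 5.19 and 8.82 CPM in AEF373, against a lowest of 4.18, a median of 5.85 and a highest of 7.76 in AEF231. These values overlapped, with a change of 0.00 ± 0.16 log2 (edgeR adjusted p = 0.994). Of 12 tested genes for the receptor and its signalling, 2 rose and 1 fell, beside 17.9% and 16.9% of all genes tested. goa-1, the inhibitory G protein alpha subunit, fell by 0.14 log2 (SE 0.05, edgeR adjusted p = 0.0118), with 199 to 223 CPM in AEF373 and 214 to 247 in AEF231. gpb-2, a G protein beta subunit, rose by 0.36 ± 0.11 log2 and eat-16, a regulator that switches off the G protein EGL-30, by 0.23 ± 0.09 (edgeR adjusted p = 0.0116 and 0.0461). The call of goa-1 was lost without AEF231 library 6 or AEF373 library 5 and under upper-quartile scaling (edgeR adjusted p = 0.132), that of gpb-2 without AEF373 library 3 (0.0753), and that of eat-16 without any of 8 of the 11 libraries (0.0507 to 0.116).

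Among 6 tested BAG genes, gcy-31, a receptor guanylate cyclase of these neurons, averaged 1.07 ± 0.422 CPM in AEF373 and 0.477 ± 0.239 in AEF231 (n = 5 and 6). Its ranges overlapped, with a change of 1.15 ± 0.45 log2 (edgeR adjusted p = 0.0419). pde-1, a cyclic nucleotide phosphodiesterase, changed by 0.47 ± 0.19 log2 (edgeR adjusted p = 0.0484). The call of gcy-31 was lost without any of 6 libraries (edgeR adjusted p = 0.0631 to 0.128), that of pde-1 without any of 7 (0.0541 to 0.116), and both in the fits of either batch alone. gcy-9, the carbon dioxide receptor, stood at 2.58 to 4.81 CPM in AEF373 and 2.82 to 4.37 in AEF231, and flp-10, flp-13 and flp-19, peptide genes also made by BAG, changed by 0.19 ± 0.14, 0.19 ± 0.23 and 0.22 ± 0.23 log2, none past the threshold. The other BAG genes listed, ets-5, gcy-33, glb-5, tax-2 and tax-4, had too few reads to be tested.

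Of 17 tested genes that process and pack neuropeptides 13 rose (76.5%, beside 17.9% of all genes tested) and none fell, with a median change of 0.34 log2 (all genes tested, -0.01). ida-1, a dense-core vesicle membrane protein, was read at 34.1, 36.2, 41.6, 28.3 and 26.2 CPM in AEF373, against a lowest of 18, a median of 20.6 and a highest of 23.2 in AEF231. The libraries of the strains did not overlap, and the change was 0.72 ± 0.09 log2 (edgeR adjusted p = 6.09e-08). unc-31, needed for dense-core vesicle release, rose by 0.65 ± 0.16 log2 (edgeR adjusted p = 0.00143). The median of the list was 0.48 log2 in batch 1 and 0.21 in batch 2. In AEF378 the list's median change over AEF231 was 0.26 log2. Of the 17 genes, 2 were higher in AEF373 than in AEF378 and 4 higher than in AEF149, with none lower in either. Of 29 other FMRFamide-like peptide genes tested, 4 rose (13.8%) and 1 fell (3.45%), both shares below those of all genes: flp-6 by 0.61 ± 0.09 log2, flp-11 by 0.50 ± 0.14 and flp-9 by 0.39 ± 0.12 among those that rose, and flp-8, which fell by 0.65 log2 (SE 0.23). The call of flp-8 was lost without any of 5 libraries (edgeR adjusted p = 0.0565 to 0.14).

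Reads also rose at unc-122, whose promoter drives the red marker, and at genes of the same stretch of chromosome I. unc-122 was read at 4.82, 5.72, 5.25, 3.39 and 4.71 CPM in AEF373, against 1.32, 2.18 and 2.83 (lowest, median, highest) in AEF231, a change of 1.13 ± 0.20 log2 without overlap (edgeR adjusted p = 1.36e-05). F11C3.1 (WBGene00008695, chromosome I, 14867924 to 14871365, plus strand), which ends 746 bases before unc-122, was read at 83.3, 90.1, 87, 75.9 and 76.9 CPM in AEF373, against a lowest of 1.71, a median of 2.4 and a highest of 2.78 in AEF231. This was the largest difference after flp-17 among genes above 50 CPM in AEF373, and it was 5.16 ± 0.11 log2 or 35.7-fold (edgeR adjusted p = 3.67e-35). aex-5, the gene of a proprotein convertase that is also among the 13 processing genes above, lies beyond F11C3.1 on that stretch, 73 bases from the muscle myosin gene unc-54. It rose by 1.69 ± 0.08 log2, with 43.5 to 53.9 CPM in AEF373 and 12 to 18 in AEF231 (edgeR adjusted p = 1.01e-20).

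The same genes were compared with the other array strains. F11C3.1 averaged 82.6 ± 6.19 CPM in AEF373 and 77.2 CPM in AEF378, a difference of 0.10 ± 0.07 log2 (edgeR adjusted p = 0.476), while it was 4.62 ± 0.11 log2 higher in AEF373 than in AEF149, which averaged 3.34 CPM. aex-5 differed from AEF378 by 0.17 ± 0.08 log2 (edgeR adjusted p = 0.165) and from AEF149 by 0.77 ± 0.08 (edgeR adjusted p = 6.39e-10). flp-17 itself was 5.30 ± 0.14 log2 higher in AEF373 than in AEF378, which averaged 7.59 CPM, and 0.37 log2 lower (SE 0.11) than in AEF149, which averaged 388 CPM (edgeR adjusted p = 1.02e-17 and 0.0116).

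The reads named gfp rose, while those of hsp-4, whose promoter drives the reporter, did not pass the test. What the sequence called gfp in the table is, no file says; it was read at 132.4, 130.9, 152.2, 118.6 and 110.4 CPM in AEF373, against a lowest of 54.9, a median of 68.5 and a highest of 80.7 in AEF231. The ranges did not overlap, with a change of 0.94 ± 0.08 log2 that was nearly the same in batch 1 (0.95 ± 0.09) and batch 2 (0.97 ± 0.12). The labels name no GFP on this array. hsp-4, an ER chaperone gene of the unfolded protein response, was read at 508, 449.6, 422, 485 and 429 CPM in AEF373, against 428, 465 and 509.6 (lowest, median, highest) in AEF231, and the ranges overlapped (-0.03 ± 0.06 log2, edgeR adjusted p = 0.753, and 0.03 under upper-quartile scaling). Of 34 ER chaperone and unfolded protein response genes tested, 7 rose (20.6%) and 8 fell (23.5%) with a median of -0.01 log2, and the 8 became 4 without AEF231 library 4 and 5 without AEF373 library 1, 2 or 3; under upper-quartile scaling 13 rose and 1 fell. pdi-2, a disulfide isomerase that also takes part in collagen folding, was the abundant member among those that rose, with 850.2 ± 95.1 CPM in AEF373 and 649 ± 62.5 in AEF231 (SD, n = 5 and 6).

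**Figure D1:**
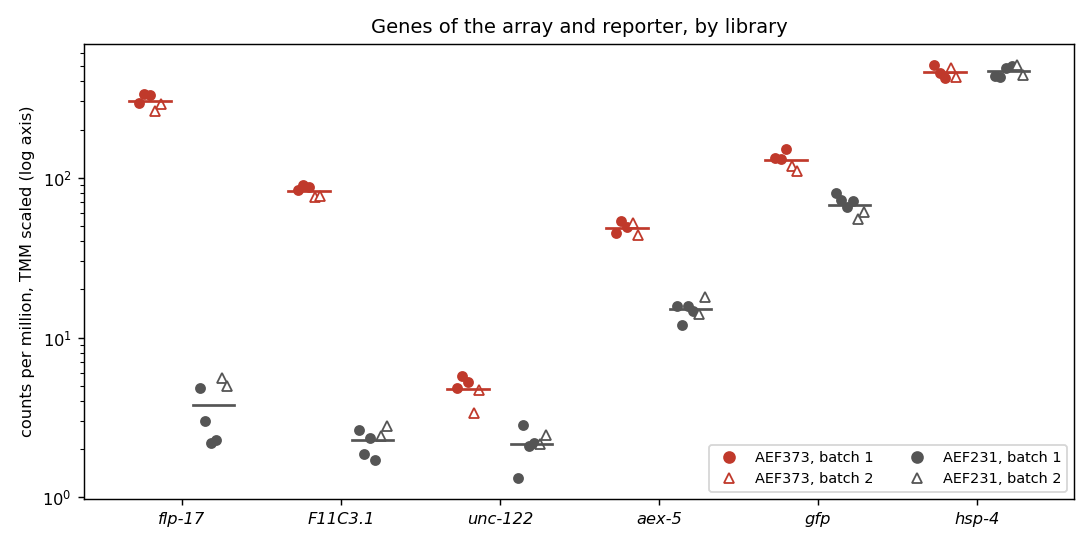
CPM (log axis) of flp-17, the unc-122 neighbourhood, gfp and hsp-4 in each AEF373 library (red, left of each pair) and each AEF231 library (grey); bars are means, circles batch 1 and triangles batch 2. AEF373 lies above every AEF231 library for all but hsp-4, where the strains overlap.

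Across the genome, 2385 genes rose (17.9% of those tested) and 2244 fell (16.9%), and with a change of at least 2-fold 737 rose (5.54%) and 49 fell (0.368%). All AEF373 libraries lay above all AEF231 libraries for 1061 genes (7.97%) and below them for 880 (6.61%). The rises and falls sat at different levels: of genes under 2 CPM 17.7% rose and 1.98% fell, of those above 100 CPM 8% rose and 37.8% fell. Genes with over 4000 bases of exon rose in 41.7% and fell in 5.26% of cases, and X-linked genes rose in 24.6% and fell in 10.2%. The even split of calls depends on scaling, since under upper-quartile scaling, which moved the median of all genes by 0.06 log2, 2813 rose and 1287 fell.

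Apart from flp-17, F11C3.1 and genes of the cuticle, the largest rises without overlap at a mean of at least 2 CPM were in pqn-73, a gene of a glutamine- and asparagine-rich protein, hil-7, a linker histone-like gene, and R09E10.5. hil-7 was read at 22.8, 30.5, 36.2, 10.2 and 14.1 CPM in AEF373, against 0.0868, 0.463 and 1.06 (lowest, median, highest) in AEF231 (5.51 ± 0.30 log2, edgeR adjusted p = 3.4e-14). pqn-73 averaged 9.11 ± 4.02 CPM in AEF373 and 0.109 ± 0.15 in AEF231, and R09E10.5 18.2 ± 7.8 and 0.621 ± 0.353. Lack of overlap was a condition for naming these 3 genes, as was a mean of at least 2 CPM over both strains together. The falls without overlap were smaller, such as H39E20.1 at 1.51 ± 0.39 CPM in AEF373 and 4.8 ± 1.19 in AEF231 (-1.70 ± 0.21 log2), and plep-1 at 2.84 ± 0.441 and 6.01 ± 1.88 (-1.06 ± 0.18 log2). Among the most abundant genes, asp-6, an aspartyl protease, rose by 0.51 ± 0.06 log2, to 1418 ± 111 CPM in AEF373, against 1009 ± 121.8 in AEF231.

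**Figure D2:**
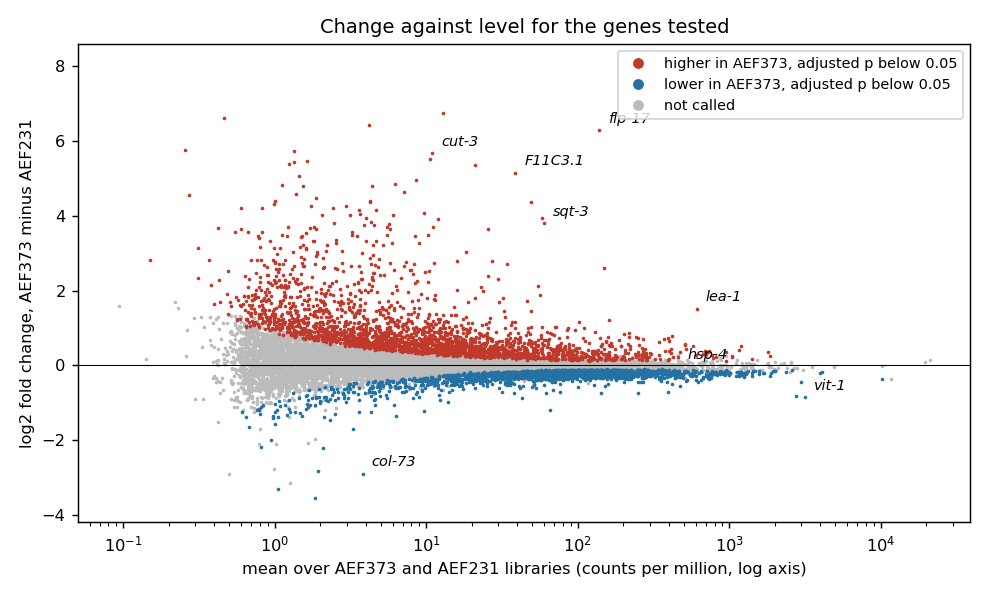
Log2 fold change of AEF373 over AEF231 against mean level (log axis) for the 13315 genes tested, red for genes called higher, blue for lower and grey for the rest. The large rises lie at low and middle levels, and the falls of abundant genes are small, with vit-1 at -0.86 log2.

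Several genes of the cuticle, the collagen coat made by the epidermis at each moult, rose by over 2 log2. Furrow collagens, which form the rings between the ridges of the cuticle, rose in 4 of 6 tested with a median of 2.71 log2, and these were dpy-2, dpy-3, dpy-7 and dpy-10. dpy-7 was read at 18.1, 17.1, 12, 6.28 and 8.53 CPM in AEF373, against a lowest of 0.337, a median of 0.746 and a highest of 1.59 in AEF231. The strains did not overlap and the AEF373 values were lower in batch 2 than in batch 1, yet the change was 3.92 ± 0.34 log2 in batch 1 and 4.40 ± 0.58 in batch 2. dpy-10, another furrow collagen, changed by 2.2 ± 0.16 log2 (edgeR adjusted p = 7.8e-15).

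Of 15 collagens of body shape and blisters tested, 3 rose (20%) and 6 fell (40%), beside 17.9% and 16.9% of all genes tested. The median of this list was -1.70 log2, so it lay mostly below AEF231 although the 3 that rose did so strongly. sqt-3, a cuticle collagen, was read at 166, 151, 154, 62.2 and 69.7 CPM in AEF373, against 3.88, 8.24 and 15 (lowest, median, highest) in AEF231. dpy-17, which acts with sqt-3 in body length, was read at 153, 159.7, 138, 62.4 and 75.5 CPM in AEF373, against 4.55, 6.66 and 14.5 in AEF231. dpy-14, a cuticle collagen as well, was read at 121.5, 125, 129, 57.2 and 75.6 CPM in AEF373, against 2.36, 5.39 and 8.57 in AEF231. All 3 were clear of AEF231 in every library, with changes of 3.79 ± 0.27, 3.95 ± 0.28 and 4.36 ± 0.34 log2 (edgeR adjusted p = 8.71e-10, 6.92e-10 and 2.94e-09). In the opposite direction, dpy-13, a collagen of body length, fell by 2.21 log2 (SE 0.69) to 0.676 ± 0.467 CPM in AEF373, against 3.26 ± 1.76 in AEF231, with an overlap of 1 AEF373 library.

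The wider collagen families were mixed. Of 98 col genes tested 16 rose (16.3%) and 10 fell (10.2%; 6 genes without AEF373 library 3), below the shares of all genes, and of 9 adult cuticle collagens none rose and 2 fell, with 0 to 2 lower when 1 library was left out. Where both strains together averaged 2 CPM or more, col-165 had the largest rise, at 32.9, 28.9, 58.6, 7.58 and 11.8 CPM in AEF373, against 0, 0.312 and 0.57 (lowest, median, highest) in AEF231 (6.74 ± 0.78 log2, edgeR adjusted p = 9.05e-07). col-73 had the largest fall, by 2.90 log2 (SE 0.89, edgeR adjusted p = 0.015), with 0.197 to 1.63 CPM in AEF373 and 2.12 to 13.5 in AEF231. Its call was lost in the fit of each batch alone. col-135 fell by 1.19 log2 (SE 0.14), with 35.4, 37.6, 21.4, 55.6 and 47.3 CPM in AEF373, against 75.2, 89.9 and 99.3 in AEF231 and no overlap.

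Cuticlins and other zona pellucida proteins, which build alae and the outer matrix, rose in 21 of 30 tested with none lower and a median of 1.42 log2. cut-3 was read at 27.5, 29.7, 43, 9.08 and 8.75 CPM in AEF373, against 0.0843, 0.36 and 1.24 (lowest, median, highest) in AEF231, a change of 5.67 ± 0.60 log2 (edgeR adjusted p = 2.78e-07). cut-2 changed by 5.36 ± 0.53 log2 and noah-2, a protein of the matrix at the outer epidermal surface, by 2.79 ± 0.15. noah-1, its partner, was read at 80.8, 74.6, 77.3, 41.8 and 43.8 CPM in AEF373, against 6.94, 10.2 and 12.7 in AEF231. In all 4 genes every AEF373 library was above every AEF231 library.

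Of 33 moulting genes and regulators tested, 20 rose and none fell (median 0.62 log2). mlt-11, a protease inhibitor of the moult, was read at 67.7, 57.4, 66.1, 32.3 and 31.6 CPM in AEF373, against 0.608, 5.31 and 6.37 (lowest, median, highest) in AEF231, a change of 3.64 ± 0.23 log2 (edgeR adjusted p = 4.1e-11). mlt-9 changed by 3.84 ± 0.34 log2 and ptr-4, a patched-related protein needed for moulting, by 3.79 ± 0.44. nhr-25, a nuclear receptor of moulting and epidermal fate, rose by 1.45 ± 0.18 log2. Of 24 patched-related genes tested 13 rose (54.2%) and 2 fell (8.33%), beside 17.9% and 16.9% of all genes tested. Of 26 hedgehog-related genes, which C. elegans uses in the epidermis and cuticle, 9 rose (34.6%) and 3 fell (11.5%). wrt-1, a warthog protein, was read at 13.5, 13.5, 14.3, 5.49 and 8.08 CPM in AEF373, against 0.506, 0.822 and 1.71 in AEF231 (3.49 ± 0.39 log2). grd-5, a groundhog-like gene, fell by 0.51 log2 (SE 0.09), with 42.4 ± 7.04 CPM in AEF373 and 59.3 ± 6.98 in AEF231.

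Heterochronic genes set which larval stage's programme is run. Of 17 tested, 8 rose (47.1%) and 1 fell (5.88%), beside 17.9% and 16.9% of all genes tested. hbl-1, a zinc finger factor of early larval fates, was read at 78, 64.6, 56.3, 31.3 and 33.1 CPM in AEF373, against 9.38, 10.6 and 11.3 (lowest, median, highest) in AEF231. It did not overlap in any library, and its change was 2.66 ± 0.12 log2 in batch 1 and 1.64 ± 0.16 in batch 2. lin-42, the period homologue that paces moults, rose by 1.1 ± 0.12 log2, and lin-14, a factor of the first larval stage, by 0.74 ± 0.10. lin-41, a translational repressor that is also made in oocytes, fell by 0.20 log2 (SE 0.06, edgeR adjusted p = 0.00425), with 543 to 642 CPM in AEF373 and 639.7 to 716 in AEF231. Of 59 homeobox genes tested 21 rose (35.6%) and 6 fell (10.2%). zag-1, a regulator of neuron identity, stood at 7.78 ± 2.65 CPM in AEF373 and 1.65 ± 0.518 in AEF231 (2.27 ± 0.22 log2).

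Markers of larvae and embryos were mixed. Of 5 larval markers, dpy-7, mlt-10 and noah-1 rose, of which dpy-7 and noah-1 are also in the furrow and cuticlin lists above, col-17 fell and col-10 had too few reads to be tested, with 3 reads in all AEF373 libraries and 5 in AEF231. The larval markers summed to 53.5 to 110.7 CPM in AEF373 and 12.4 to 21.8 in AEF231. Of 5 embryo markers only hch-1, the protease that opens the eggshell, had enough reads to be tested, and it was read at 22.5, 15.8, 19, 11.4 and 14.9 CPM in AEF373, against 0.422, 1.49 and 2.65 (lowest, median, highest) in AEF231 (3.45 ± 0.31 log2, edgeR adjusted p = 6.23e-09). The endoderm genes end-1 and end-3 had 21 and 27 reads in all in AEF373 and 20 and 35 in AEF231, the T-box gene tbx-37 had 5 and 30, and med-1 had 1 and 0. The part of embryos or larvae in the results was not tested.

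Cilium assembly genes, which build the sensory endings of neurons such as BAG, rose in 24 of 29 tested with none lower and a median of 1.03 log2. klp-11, a kinesin of ciliary transport, was read at 8.69, 7.99, 6.43, 4.19 and 6.21 CPM in AEF373, against 0.727, 1.49 and 1.81 (lowest, median, highest) in AEF231. che-3, the dynein of return transport, averaged 5.95 ± 1.38 CPM in AEF373 and 1.75 ± 0.424 in AEF231. dyf-3, needed for ciliary transport, averaged 16 ± 2.56 CPM in AEF373 and 7.03 ± 1.1 in AEF231. None of the 3 overlapped, with changes of 2.30 ± 0.23, 1.77 ± 0.23 and 1.19 ± 0.14 log2 (edgeR adjusted p = 1.16e-10, 6.86e-08 and 3.8e-09). osm-6, a transport subunit, stood at 2.52 ± 1.02 CPM in AEF373 and 2.13 ± 0.787 in AEF231, and daf-19, the master factor of ciliary genes, at 25 ± 1.79 and 24.9 ± 2.37; neither passed the threshold, and both were named after their values were seen.

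Of 20 pan-neuronal genes tested, 13 rose and none fell, with a median of 0.47 log2. cla-1, a scaffold of the presynaptic active zone, was read at 10.8, 9.57, 12.28, 5.59 and 6.21 CPM in AEF373, against 2.45, 3.12 and 3.27 (lowest, median, highest) in AEF231 (1.56 ± 0.18 log2, edgeR adjusted p = 3.3e-09). aex-3, an exchange factor for the vesicle GTPase RAB-3, and unc-64, the neuronal syntaxin, rose by 1.09 ± 0.11 and 0.69 ± 0.10 log2. The 5 neuron markers summed to 205 to 269 CPM in AEF373 and 169 to 230 in AEF231, so the sums overlapped.

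Muscle, pharynx and basement membrane rose by smaller amounts. Of 29 body wall muscle genes tested 13 rose and none fell, with a median of 0.17 log2, and of 18 pharyngeal genes 11 rose and 1 fell. myo-3, a body wall muscle myosin, was read at 154, 130.5, 121, 140.2 and 144 CPM in AEF373, against 63.6, 81.2 and 103.6 (lowest, median, highest) in AEF231 (0.72 ± 0.08 log2, edgeR adjusted p = 4.47e-08). deb-1, the vinculin of muscle attachments, rose by 0.53 ± 0.06 log2 and myo-2, a pharyngeal myosin, by 0.51 ± 0.10. Basement membrane genes rose in 16 of 25 tested with none lower (median 0.33 log2). lam-3, a laminin alpha chain, was read at 67.2, 60.01, 58.5, 44.1 and 46.2 CPM in AEF373, against 20.7, 24.2 and 31.7 in AEF231 (1.16 ± 0.09 log2), and agr-1, the agrin, rose by 1.16 ± 0.16.

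**Figure D3:**
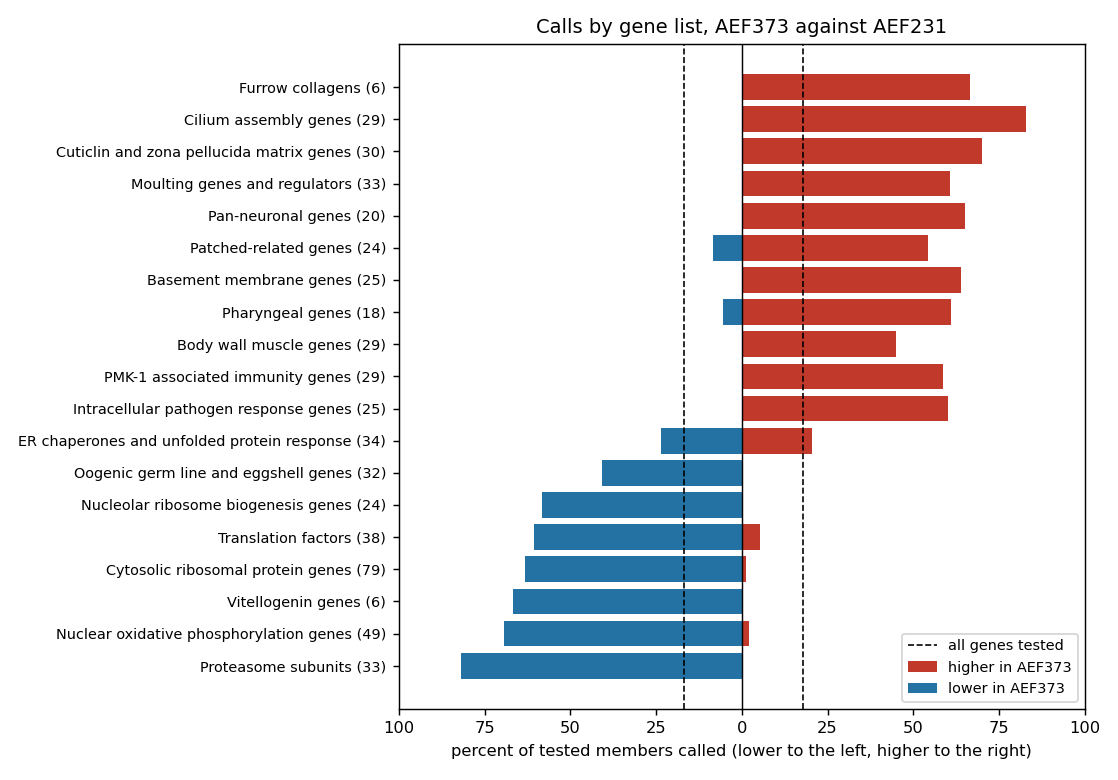
Percent of tested members called higher (red, right) and lower (blue, left) in AEF373 for 19 gene lists, with the number tested in brackets; dashed lines mark 17.9% higher and 16.9% lower over all genes tested. Furrow collagen, cuticlin, moulting, cilium, neuronal and immunity lists lie to the right, and translation, proteasome and mitochondrial lists to the left. Other cuticle lists are not drawn. Body shape and blister collagens had 20% higher and 40% lower, adult cuticle collagens 0% and 22.2%, and col genes 16.3% and 10.2%.

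The falls were small: 49 of the 2244 genes that fell did so by at least 2-fold, and by level 870 of them lay above 100 CPM, 1178 at 10 to 100 CPM, 146 at 2 to 10 and 50 below. Of 79 cytosolic ribosomal protein genes tested 50 fell and 1 rose (median -0.22 log2), and of 38 translation factors 23 fell and 2 rose. eif-3.J, a subunit of an initiation factor, was read at 58, 56.1, 51.4, 61.1 and 56.7 CPM in AEF373, against 69.5, 76 and 84.9 (lowest, median, highest) in AEF231, with no overlap (-0.44 ± 0.06 log2, edgeR adjusted p = 3.74e-08). eef-1A.2, an elongation factor gene, went against its list and rose by 0.74 ± 0.10 log2. Of 24 nucleolar ribosome biogenesis genes 14 fell (9 without AEF373 library 2) and none rose, with nol-56 at 386 ± 27.9 CPM in AEF373 and 482 ± 66.3 in AEF231. Of 33 proteasome subunits 27 fell and none rose (median -0.20 log2), with rpn-3 at 360.0 ± 18.7 CPM in AEF373 and 434 ± 16.14 in AEF231 and no overlap (-0.27 ± 0.04 log2, edgeR adjusted p = 5e-06).

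Nuclear genes of oxidative phosphorylation fell in 34 of 49 tested and 1, ucr-2.2, rose (median -0.19 log2). Of 17 mitochondrial stress genes 10 fell and 1 rose, with tomm-40, the import channel of the outer membrane, at 135.2 ± 8.08 CPM in AEF373 and 175 ± 5.59 in AEF231, and hsp-60, a matrix chaperone, at 453 ± 47 and 594 ± 72.2. These falls stand close to the scaling: under upper-quartile scaling 36 ribosomal, 8 nucleolar, 20 proteasome and 19 oxidative phosphorylation genes fell.

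Germ line lists fell by similar amounts. Of 32 oogenic and eggshell genes tested 13 fell (40.6%; 8 genes without AEF373 library 3). Of 31 core cell cycle and DNA replication genes 11 fell (35.5%). None rose in either list, and the medians were -0.12 and -0.10 log2. Of all genes tested 16.9% fell, and of those above 100 CPM 37.8% fell, with a median of -0.09 log2. spn-4, a maternal RNA-binding protein, was read at 663, 677, 649, 763 and 724 CPM in AEF373, against 809, 828 and 858 (lowest, median, highest) in AEF231, with no overlap (-0.26 ± 0.05 log2, edgeR adjusted p = 2.78e-05). orc-2, a subunit of the origin recognition complex, fell by 0.35 log2 (SE 0.04), with 74.9 ± 3.18 CPM in AEF373 and 95.2 ± 2.32 in AEF231. Under upper-quartile scaling 8 oogenic and 8 cell cycle genes fell.

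Vitellogenins, yolk proteins made by the intestine for oocytes, fell in 4 of 6 tested, and these were vit-1, vit-3, vit-4 and vit-5. vit-3 was read at 1978, 1758, 1412, 2588 and 2223 CPM in AEF373, against 2970.2, 3365 and 4049 (lowest, median, highest) in AEF231, with no overlap (-0.81 ± 0.08 log2, edgeR adjusted p = 3.62e-10). vit-1 fell by 0.86 log2 (SE 0.10) and vit-5, the most abundant of the 4, by 0.37 (SE 0.07). The summed level of all 6 still overlapped, at 50566 to 68332 CPM in AEF373 and 56482 to 67617 in AEF231. Other intestinal genes mostly did not fall with them: of 27 tested 12 rose (44.4%) and 4 fell (14.8%), beside 17.9% and 16.9% of all genes tested. cpr-4, a cathepsin B protease, stood at 496 ± 19.7 CPM in AEF373 and 317 ± 41.1 in AEF231 (0.65 ± 0.07 log2).

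Several metabolic and stress genes stood out singly. lea-1, a desiccation protection protein, was read at 1206, 973, 1162, 727 and 672 CPM in AEF373, against 298, 325 and 365 (lowest, median, highest) in AEF231 (1.51 ± 0.11 log2, edgeR adjusted p = 1.19e-09). fat-7, a stearoyl-CoA desaturase, was read at 314, 322, 282, 267 and 248 CPM in AEF373, against 142, 151 and 186 in AEF231 (0.86 ± 0.08 log2), and fat-2, the next desaturase of the pathway, rose by 0.52 ± 0.06. ech-1.1, an enzyme of fatty acid oxidation, was read at 11.3, 12.5 and 16.9 CPM (lowest, median, highest) in AEF373, against 1.45, 2.07 and 3.3 in AEF231 (2.64 ± 0.18 log2, edgeR adjusted p = 1.49e-15). All 4 were clear of AEF231 in every library. The lists around them were mixed, with 16 of 64 fatty acid oxidation genes higher (25%) and 12 lower (18.8%), and 12 of 49 cytochrome P450 genes higher (24.5%) and 10 lower (20.4%; 6 genes without AEF231 library 4). cyp-13B1 rose by 3.21 ± 0.27 log2, while cyp-14A2 and cyp-25A1 fell by 1.30 and 1.06 log2 (SE 0.30 and 0.16).

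Immunity lists moved mostly upward. Of 29 genes associated with the p38 kinase PMK-1 in pathogen defence, 17 rose and none fell (median 0.50 log2), and of 25 genes of the response to intracellular pathogens, which microsporidia and viruses set off, 15 rose and none fell (median 0.77 log2). T24B8.5, a known target of this kinase, was read at 16.7, 20.04, 23.4, 7.68 and 10.02 CPM in AEF373, against 3.37, 6.76 and 8.63 (lowest, median, highest) in AEF231; library 4 lay within the AEF231 range (1.38 ± 0.16 log2, edgeR adjusted p = 3.7e-08). pals-6, of the pathogen response, was read at 5.93, 4.64, 3.62, 1.9 and 2.17 CPM in AEF373, against 0.0868, 0.819 and 1.73 in AEF231, with no overlap (2.2 ± 0.32 log2). lys-2, a lysozyme, rose by 0.98 ± 0.10 log2 and ilys-5, an invertebrate-type lysozyme, fell by 0.71 (SE 0.07). Of 87 C-type lectin genes tested 23 rose (26.4%) and 6 fell (6.90%), beside 17.9% and 16.9% of all genes tested. The rises were led by clec-78 at 24.4 ± 10.4 CPM in AEF373 and 1.68 ± 1.04 in AEF231.

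Within batch 1, 2291 of 12999 genes tested rose (17.6%) and 1684 fell (13%), and within batch 2, with 2 libraries a strain, 582 rose (4.48%) and 222 fell (1.71%). The medians turned sign between batches 1 and 2 for the col family (0.08 and -0.15 log2), cytochrome P450 genes (0.24 and -0.04), fatty acid oxidation (0.06 and -0.04) and ER chaperones (0.04 and -0.03). The medians also turned for fatty acid synthesis and desaturation (0.12 and -0.07), methionine cycle (0.003 and -0.11), UDP-glucuronosyltransferase (0.03 and -0.04) and antioxidant genes (0.08 and -0.03). They had 1 sign in both batches for furrow collagens (2.87 log2 in batch 1 and 2.39 in batch 2), cuticlins (1.70 and 1.13), cilium assembly (1.23 and 0.83), pan-neuronal genes (0.58 and 0.34), ribosomal proteins (-0.22 and -0.22), proteasome subunits (-0.19 and -0.19) and oxidative phosphorylation (-0.20 and -0.18). Tested directly, the change of AEF373 over AEF231 was larger in batch 2 for 6 genes (0.0462%) and smaller for 56 (0.431%). ptr-19, a patched-related gene, changed by 2.90 ± 0.48 log2 in batch 1 and -0.29 ± 0.56 in batch 2 (difference -3.19 ± 0.75, edgeR adjusted p = 0.0447). dod-3 changed by -0.05 ± 0.21 in batch 1 and 2.11 ± 0.41 in batch 2 (difference 2.16 ± 0.47, edgeR adjusted p = 0.0229). Among genes named above, the change was smaller in batch 2 for hbl-1, lea-1 (1.78 ± 0.09 log2 in batch 1 and 1.07 ± 0.11 in batch 2), fat-7 (1.07 ± 0.06 and 0.52 ± 0.09), fat-2 (0.68 ± 0.06 and 0.26 ± 0.08) and eef-1A.2 (0.96 ± 0.07 and 0.37 ± 0.10), each with an edgeR adjusted p of the difference between 0.0106 and 0.0456. Without AEF231 library 5 the counts were 0 and 5, without AEF373 library 4 they were 0 and 12, and without AEF373 library 5 they were 1 and 8. Leaving out AEF231 library 3 or AEF373 library 2 or 3 brought the 56 to 29, 27 and 33. The batch differences named here, that of flp-17 included, all lost the call without AEF231 library 5 and without AEF373 library 5.

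AEF378, sorted in the same way and in the same background, differed from AEF373 in fewer genes, with 788 higher in AEF373 (5.92%) and 490 lower (3.68%; 326 without AEF373 library 1). The comparisons share the AEF373 libraries. Furrow collagens were higher than in AEF378 in 4 of 6, cuticlins in 12 of 30, moulting genes in 15 of 33, pan-neuronal genes in 8 of 20 and cilium genes in 7 of 29, with none lower in any of these lists. In that order, AEF378 itself lay above AEF231 by medians of 1.15, 0.49, 0.23, 0.16 and 0.36 log2. The medians of AEF373 over AEF231 were 2.71, 1.42, 0.62, 0.47 and 1.03. cut-3 averaged 23.6 ± 14.7 CPM in AEF373 and 0.586 in AEF378 (5.33 ± 0.64 log2, edgeR adjusted p = 5.83e-06), and ech-1.1 13.2 ± 2.15 in AEF373 and 3.15 in AEF378 (2.07 ± 0.18). dpy-14 was 1.95 ± 0.30 and vit-3 -0.57 ± 0.08 log2 from AEF378. The abundant lists were mixed. Few genes differed among ribosomal proteins (0 of 79 higher and 1 lower), proteasome subunits (0 of 33 and 2) and oogenic genes (0 of 32 either way). Oxidative phosphorylation genes were lower than in AEF378 in 9 of 49 and vitellogenins in 4 of 6, with none higher, beside 3.68% of all genes lower. The immunity gene dod-22, which was 1.57 ± 0.23 log2 above AEF231, was 0.16 ± 0.21 from AEF378 (edgeR adjusted p = 0.715). The median of AEF378 over AEF231 was 0.60 log2 for the intracellular pathogen list and 0.34 for the PMK-1 list. Of these lists 2 of 25 and 6 of 29 genes were higher in AEF373 than in AEF378, with none lower.

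AEF149, which had flp-17 at a level near that of AEF373 but another background and no batch 2 library, differed in 2535 genes higher in AEF373 (19%) and 1764 lower (13.2%). Furrow collagens were higher in AEF373 than in AEF149 in 4 of 6 and cuticlins in 18 of 30 with 1 lower, and hch-1 was 5.01 ± 0.39 log2 higher, at 16.7 ± 4.24 CPM in AEF373 and 0.618 in AEF149. Pan-neuronal genes were higher in 6 of 20 and lower in 2. Basement membrane genes were higher in 23 of 25, body wall muscle genes in 26 of 29 and major sperm protein genes in 26 of 27. As log2 ratios to the AEF231 mean, the AEF149 library medians of these lists were -0.25 to -0.17, -0.43 to -0.34 and -2.52 to -1.56. Those of AEF231 were -0.12 to 0.10, -0.16 to 0.23 and -0.46 to 0.59. Those of AEF373 were 0.26 to 0.35, 0.04 to 0.25 and -1.91 to 0.54. Under upper-quartile scaling 2813 genes were higher in AEF373 and 1228 lower.

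**Figure D4:**
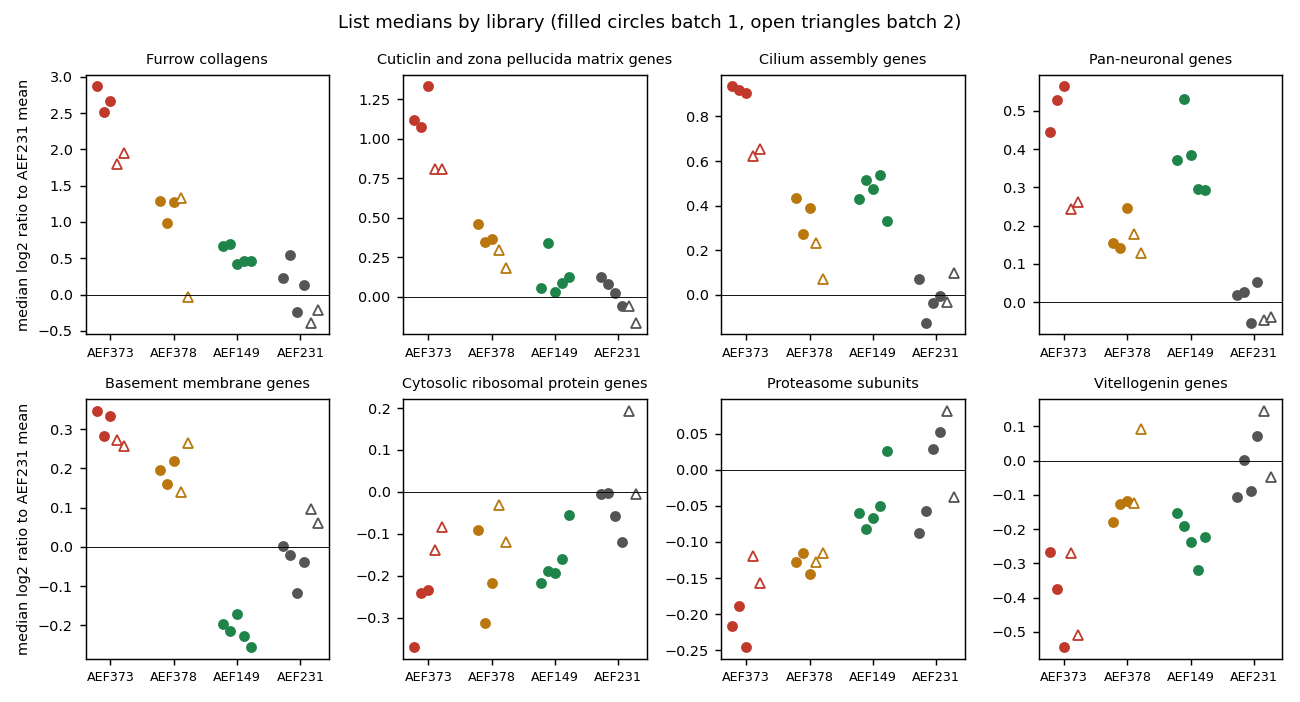
Median log2 ratio of each library to the mean of AEF231, from log2(CPM + 0.5) over the tested members of 8 lists, for AEF373, AEF378, AEF149 and AEF231; filled circles are batch 1 and open triangles batch 2. All AEF373 libraries lie above all AEF231 libraries for the furrow, cuticlin, cilium, neuronal and basement membrane lists and below them for proteasome and vitellogenin genes, while ribosomal proteins overlap.

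A run of neighbouring genes on chromosome II was higher in AEF373 than in each of the 3 strains. It was bounded after its values were seen, so its counts are a description. The run, from lido-7 to ZC239.16 (2988300 to 3225319, 237 kb, WBcel235), holds 78 protein-coding genes, of which 35 were tested along with 2 others; of these 37 genes 30 rose against AEF231, none fell, and the median change was 0.84 log2, with 26 genes free of overlap. Against AEF378 29 were higher and none lower (median 0.81 log2), and against AEF149 32 were higher and none lower (0.88). The median was 0.93 log2 in batch 1 and 0.83 in batch 2. The 20 tested genes before the run had a median of 0.06 log2 with 4 higher and 3 lower, and the 20 after it 0.04 with 4 higher and 2 lower. Among all genes tested, 17.9% rose, 16.9% fell, and in 7.97% every AEF373 library lay above every AEF231 library. The shares higher than in AEF378 and AEF149 were 5.92% and 19%.

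At 10 CPM or more, 15 of the run's 16 genes rose against AEF231, with a median of 0.67 log2, or 1.59-fold, and a range over the 16 of -0.16 to 1.34, and 16 of 16 were higher than in AEF378 and in AEF149. copb-1, a subunit of the coat of Golgi vesicles, was read at 473, 404, 393, 460.1 and 411 CPM in AEF373, against 258, 279.5 and 291 (lowest, median, highest) in AEF231 (0.63 ± 0.05 log2, edgeR adjusted p = 2.48e-12). sri-40, a member of a chemoreceptor family, was read at 76.4, 76.6, 76.6, 74.6 and 83.8 CPM in AEF373, against 46.9, 49.2 and 50.2 in AEF231 (0.66 ± 0.06 log2). The exception was T10D4.6, at 51.5 ± 3.53 CPM in AEF373 and 57.6 ± 3.45 in AEF231 (-0.16 ± 0.08 log2, edgeR adjusted p = 0.0903), which was 1.00 ± 0.08 and 1.03 ± 0.09 log2 above AEF378 and AEF149. As a median ratio to AEF231 per library, the 16 genes stood at 1.46 to 1.73 in AEF373 and 0.973 to 1.04 in AEF231. The same ratio was 0.969 to 1.03 in AEF378 and 0.920 to 1.06 in AEF149. Over all 37 tested genes of the run the median of AEF378 over AEF231 was 0.17 log2, and 0.49 over the 21 under 10 CPM. Among 486 windows of 200 kb with at least 10 tested genes, the smallest of the 3 median differences was 0.71 log2 in the window within this run and at most 0.21 in any other.

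**Figure D5:**
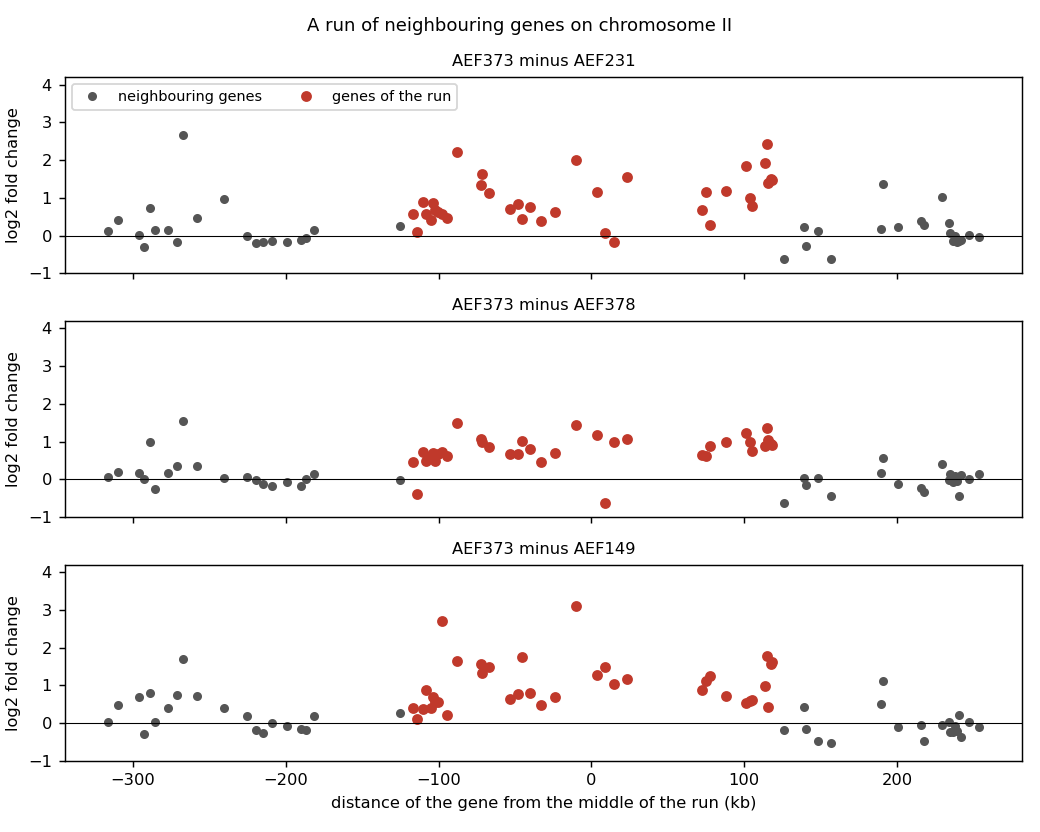
Log2 fold change of each tested gene in and around the chromosome II run against its distance in kb from the run's middle, for AEF373 over AEF231, AEF378 and AEF149. The genes of the run (red) lie mostly above 0 in all 3 panels, with medians of 0.84, 0.81 and 0.88, and the neighbours (grey) lie mostly around 0. An exception is the neighbour Y110A2AL.4, at 2.66, 1.54 and 1.70.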

How the data were processed

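Whole-worm poly(A) libraries were sequenced, and the authors deposited whole-number read counts per gene for 26 libraries. Reads were aligned to ce11 with STAR 2.7.11b, per the submitters' processing notes; how reads were counted, with which annotation and whether by strand, is not given in the sources used here. Genes that overlap, or lie antisense to one another, may therefore share reads. Strains and batches were taken from the labels. Of 42533 symbols, 40181 had 1 position in the Ensembl WBcel235 annotation; gfp and T24B8.5 had none, and the mitochondrially encoded genes listed were not among the symbols tested.

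edgeR 4.0.16 in R 4.3.3 fitted all 26 libraries with strain and batch (TMM scaling, filterByExpr by strain, robust quasi-likelihood, 13315 genes, Benjamini-Hochberg, threshold 0.05). The batch difference was tested as strain by batch in AEF231, AEF373 and AEF378 (12999 genes). The fit was tested on simulated data, and 25 replicate pairs were checked with a chi-square test and differed by more than sampling noise. Medians per library used log2(CPM + 0.5).

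Genes named were flp-17, egl-6, hsp-4, unc-122, gfp and the BAG genes, the largest changes without overlap and the most abundant called genes (mean at least 2 CPM), up to 4 called members of a list each way, and the largest batch differences; 21ur-3217, daf-19, osm-6, the stage markers noah-1 and col-17, and the genes of the chromosome II run were outside this and were chosen after their values were seen. The members and lists were chosen with earlier results of these data known. Alternatives were other scalings and filters, DESeq2 1.42.0, no batch term, each batch alone, only the strains compared, a replicate block, no robust weights, a threshold of 0.01 and leaving out each library; those on the chromosome II run and the list medians by batch were added after seeing the data.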

Additional observations from a re-analysis of the deposited data

Results flagged for a closer look

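In the groups of 5 or 6 libraries checked for each named gene, 9 of 231 (3.9%) held a library whose gap to the rest was large for its group; chance flags about 1 in 20. In AEF373 these were egl-6 at 8.82 CPM in library 5 (the others 4.81 to 5.43), deb-1 at 120.9 CPM in library 1, sri-40 at 83.8 CPM in library 5 (the others 74.6 to 76.6) and lido-7, the first gene of the chromosome II run, at 26.8 CPM in library 5. In AEF231 they were unc-31 at 3.67 CPM in library 1, mlt-9 at 1.81 CPM in library 4, nhr-25 at 1.94 CPM in library 6, eef-1A.2 at 371 CPM in library 5 and pal-1, a homeodomain factor named below, at 158.3 CPM in library 4.

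The change of AEF373 over AEF231 differed between the batches, tested as an interaction of strain and batch, in 9 named genes. On the log2 scale, batch 2 minus batch 1, the difference was -1.01 for flp-17, -3.19 for ptr-19, -1.02 for hbl-1, -0.71 for lea-1, -0.56 for fat-7, -0.42 for fat-2, -0.59 for eef-1A.2 and -0.60 for hsp-43, and 2.16 for dod-3.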

How the results depend on the processing

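Of 139 tests of named genes, 86 kept their direction and side of the threshold under every alternative other than leaving out a library, and 120 under every single library left out. Of 118 counts of list members called, 22 stayed within 1.5 times of their value under every other alternative and 76 under every library left out; counts of 1 or 2 members often moved by 1 or 2. Batch 2 alone, with 2 libraries a strain, called 648 genes higher and 221 lower, 299 and 9 of them by at least 2-fold, and 148 higher and 94 lower against AEF378; batch 1 alone called 101 lower by at least 2-fold. At an adjusted p below 0.01, 1383 genes fell, 27 by at least 2-fold, 472 were higher and 228 lower than in AEF378, 959 lower than in AEF149, and the batch difference held in 0 genes above and 11 below. Upper-quartile scaling left 1287 falls. The batch difference counted 15 above with DESeq2, and 45 above and 127 below with no filter. Same-numbered AEF373 and AEF231 libraries correlated in their deviations from strain means at 0.138, 0.116, 0.121 and 0.295 for numbers 1, 2, 3 and 5, and at -0.092 for number 4, which alone spans both batches. From strain and batch means, number 4 gave 0.209 and the others -0.057 to -0.005, so the numbers were not taken as pairs. With the number as a block, the batch difference counted 0 above and 22 below (2 and 10 by the labels' group number), and 2159 genes rose and 1859 fell against AEF231. Without 1 library at a time, 2100 to 2449 genes rose (672 to 831 by at least 2-fold) and 1668 to 2201 fell (40 to 72); against AEF378 659 to 856 were higher and 326 to 453 lower, against AEF149 2176 to 2586 and 1345 to 1760, and the batch difference counted 0 to 8 above and 5 to 52 below. Values that turned their sign, none of them called, were daf-19 (-0.087 in batch 2 alone, -0.019 to 0.065 without 1 library), egl-6 (-0.0068, and -0.13 to 0.10), F11C3.1 against AEF378 (-0.095) and flp-13 (-0.12), all in batch 2 alone; gcy-9 (0.078 in batch 1 alone, 0.012 under upper-quartile scaling, -0.25 to 0.058 without 1 library), hsp-4 (0.030 under upper-quartile scaling, -0.058 to 0.012 without 1 library) and osm-6 (-0.33 in batch 1 alone). The cause was not tested. Depth limits low genes: of the BAG genes, 5 of 11 had too few reads to be tested.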

Other observations

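The abu and pqn genes, which encode proteins rich in glutamine and asparagine and include pharyngeal cuticle proteins, rose in 19 of 49 tested (38.8%) and fell in 5 (3 without AEF373 library 2). abu-13 was read at 8.6, 6.91, 10.1, 2.39 and 4.34 CPM in AEF373, against 0.169, 0.639 and 0.818 (lowest, median, highest) in AEF231 (3.48 ± 0.38 log2, edgeR adjusted p = 9.95e-09), and pqn-32 rose by 2.94 ± 0.45 log2. Both were clear of AEF231 in every library. Of 23 zygotic genes of the embryo tested 8 rose and 3 fell: pha-4, the factor of pharynx identity, averaged 13.1 ± 2.61 CPM in AEF373 and 5.23 ± 1.51 in AEF231, while pal-1, which is also a maternal transcript, fell to 122.4 ± 6.57 CPM in AEF373, against 144 ± 7.18 in AEF231. Of 165 nuclear hormone receptor genes tested 28 rose (17%) and 4 fell (2.42%), beside 17.9% and 16.9% of all genes tested.

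Major sperm protein genes fell in 5 of 27 tested (18.5%, near the 16.9% of all genes) and none rose. That count was 1 without AEF231 library 2 or AEF373 library 1 or 2, 2 or 3 without any other library but AEF231 library 5, and 11 without AEF373 library 5. The list had a median of -1.004 log2 in batch 1 and -0.08 in batch 2, and their summed level was 43.3 to 311 CPM in AEF373 and 137 to 316 in AEF231. msp-152 was read at 4.13, 2.66, 4.29, 15.6 and 15.3 CPM in AEF373, against 7.27, 9.24 and 17 (lowest, median, highest) in AEF231; its call (edgeR adjusted p = 0.00809) was lost with no batch term (0.445). Members of this family have near-identical copies, so reads may be split among them. Of 28 P granule and small RNA genes 7 fell (25%) and 1 rose, with csr-1, an Argonaute of the germ line, at 502 ± 30.7 CPM in AEF373 and 613 ± 37.6 in AEF231, and glh-1, a P granule helicase, at 664 ± 107 and 834 ± 66.9.

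Stress and sugar metabolism lists were mixed. Of 12 heat shock genes 3 rose (25%) and 4 fell (33.3%; 1 or 2 genes when any of 6 libraries was left out). The small heat shock gene hsp-43 stood at 86.4 ± 14.6 CPM in AEF373 and 47.6 ± 3.8 in AEF231, and hsp-110 at 539 ± 26.5 and 663 ± 37.7. Of 43 glycolysis and citrate cycle genes 16 fell (37.2%) and 3 rose (6.98%; 8 genes without AEF231 library 5, 5 without AEF373 library 5). mdh-2, a malate dehydrogenase, fell by 0.26 log2 (SE 0.05) and pck-2, a phosphoenolpyruvate carboxykinase, rose by 0.35 ± 0.06. Of 26 antioxidant enzymes 5 rose (19.2%) and 2 fell (7.69%). The catalase gene ctl-3 stood at 14.1 ± 3.71 CPM in AEF373 and 8.14 ± 0.847 in AEF231. Of 20 genes associated with the insulin pathway factor DAF-16, 8 rose (40%) and 3 fell (15%; 1 gene when any of 7 libraries was left out). mtl-2, a metallothionein, fell to 30.4 ± 11.1 CPM in AEF373, against 53 ± 13.5 in AEF231.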
